A study of Mus musculus with 12 samples.

Results

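Fibroblast and stromal marker genes, 10 in number, were followed through bulk RNA sequencing of 12 subcutaneous tumours: Pdgfra, Fap, Pdpn, Dcn, Lum, Postn, Fn1, Tnc, Thy1 and Pi16. They were taken by name, 10 of the 35434 genes in the deposited count table. The tumours came from 4T1 cells, a line of triple-negative breast cancer from the mouse, grown in female BALB/c mice 6 to 8 weeks old, and each library came from a different mouse. All mice had 3 days of acclimatization before inoculation under the skin of the back. HI mice were kept in a hypobaric chamber set to 3500 m and were given IOX2, an inhibitor of the oxygen sensor PHD2, at 10 mg/kg by daily intraperitoneal injection for 10 days starting 9 days after inoculation. HC mice shared the chamber setting and had vehicle injections on that schedule. MI mice stayed at about 1500 m with IOX2, and MC mice stayed at about 1500 m with vehicle. Each group had 3 mice, and tumours were taken on study day 22. Chamber housing and altitude cannot be told apart, because only HI and HC mice lived in the chamber, and the word altitude stands for both here.

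Fibroblasts in a carcinoma come from the host tissue around and inside it, and they make most of the interstitial matrix. They differ among themselves: myofibroblastic cells next to tumour nests are contractile and rich in matrix, inflammatory cells secrete cytokines, and cells resembling those of the vessel adventitia carry Pi16 and Dpp4. No single gene marks them all. Fn1 and Tnc are also made by carcinoma cells, Pdpn by lymphatic endothelium and some macrophages, and Thy1 in the mouse by T cells and neurons. Since whole tumour pieces were sequenced, fewer cells of a type and less RNA per cell cannot be told apart.

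Library totals ran from 31661685 to 40019343 counts, and 15269 genes had enough counts to be tested. All 10 markers were among them, and the lowest count of any was 201, for Fap in HI3 (replicate 3 of HI, and so on for the others). Levels below are CPM, a gene's counts scaled for library size and composition, unless FPKM, the deposited value per gene length, is named. A gene was called changed where its p in edgeR's quasi-likelihood test, adjusted across every tested gene by the Benjamini-Hochberg procedure, was under 0.05.

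Altitude and IOX2 left none of the 10 markers past that threshold. In HC against MC, HI against MI, HI against HC and the altitude by IOX2 interaction, 0 of 10 were called, where the background over all tested genes was 0% as well. In MI against MC 0 of 10 were called with a background of 0.0262%, in altitude averaged over treatment 0 of 10 with a background of 0.498%, and in IOX2 averaged over altitude 0 of 10 with a background of 0.0393%. At an unadjusted p under 0.05 edgeR listed 1 marker in HC against MC (Fn1; background 12%), 2 in HI against MI (Fap and Lum; background 15.2%), 0 in MI against MC (background 9.39%) and 0 in HI against HC (background 4.85%). The altitude average listed 2 (Lum and Fn1; background 17.3%), the IOX2 average 0 (background 5.12%) and the interaction 1 (Fap; background 8.21%). These shares lie near the background or under it. DESeq2's Wald test called 1 marker, Fap in HI against MI, and limma-voom called 0 in each comparison. Of 24264 genes with a p value in DESeq2, that test called 376 in HI against MI and 311 in HC against MC. In altitude averaged over treatment it called 855 of 24264. The background percentages here and below are those of edgeR.

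Across the 7 comparisons, 64 of the 70 intervals (95%) of the markers' log2 changes included 0, and 48 of 70 lay wholly within 1 log2 unit of 0. The narrowest interval in comparisons of 2 groups belonged to Thy1, which reached 0.22 log2 units to either side of its estimate, and the widest to Pi16, which reached 1.38. A doubling lay inside the interval of Pi16 and outside that of Thy1 in each of the 7 comparisons.

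**Figure D1:**
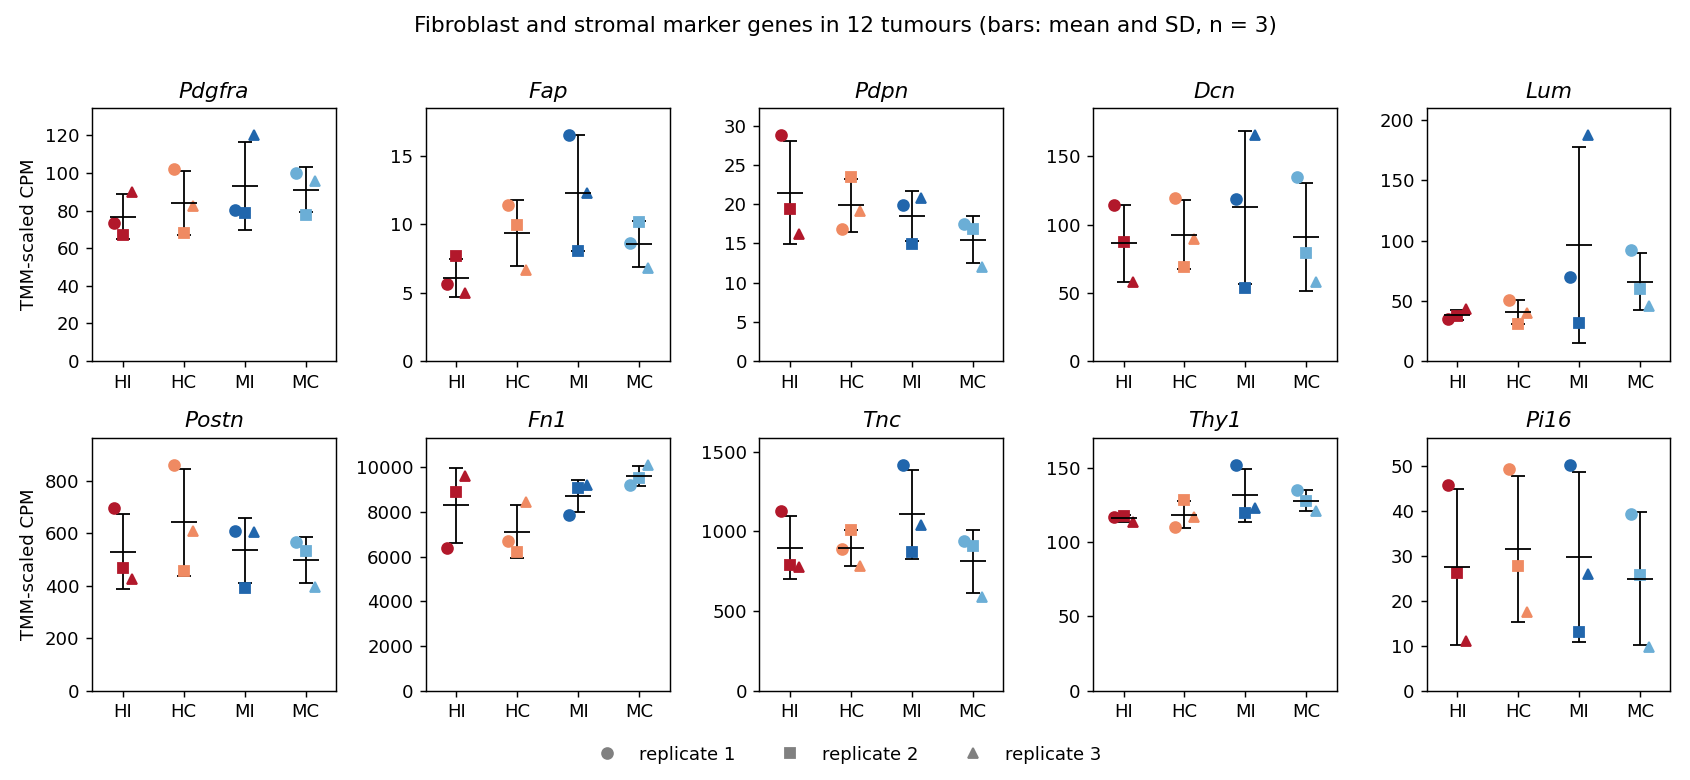
TMM-scaled CPM of the 10 markers in each tumour, by group, with a horizontal bar for the group mean and whiskers for the SD (n = 3). Lum stands apart in MI3 at 187 CPM, Pi16 is highest in replicate 1 of each group, and the Fap values of HI lie below those of MI.

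Per gene length the 10 markers spanned more than 2 orders of magnitude. Median FPKM over the 12 tumours was 1035 for Fn1, which encodes fibronectin, 160.0 for Postn (periostin) and 119 for Tnc (tenascin C). It was 69.3 for Thy1, 41.8 for Dcn (decorin) and 21.5 for Lum (lumican). It was 11.2 for Pi16, 9.97 for Pdpn (podoplanin), 8.83 for Pdgfra and 3.17 for Fap. Fn1 held rank 50 among all genes by mean FPKM and took 0.620% to 1.00% of a library's counts, whereas Fap held rank 9226. In that order Fn1 was clear of Postn and Fap was clear of Pdgfra over the 12 tumours, and every other pair of neighbours overlapped in range.

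**Figure D2:**
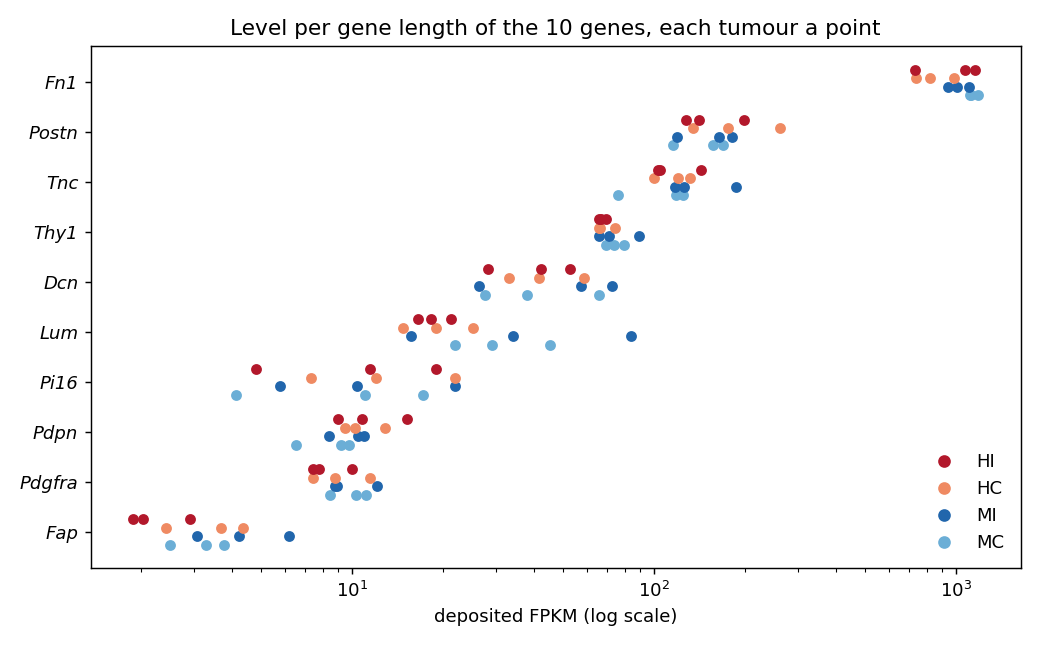
Deposited FPKM (log axis) of each marker, 1 point per tumour, with HI above HC, MI and MC within each gene and genes sorted by median. Fn1 lies at 732 to 1182 FPKM in all 12 tumours and Fap at 1.88 to 6.19 FPKM.

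How far a marker varied between tumours differed widely. The highest tumour over the lowest, on the CPM scale, was 1.38 for Thy1, 1.63 for Fn1 and 1.79 for Pdgfra, where the median over all tested genes was 1.71. It was 2.19 for Postn, 2.39 for Pdpn, 2.41 for Tnc, 3.07 for Dcn and 3.30 for Fap. Pi16 reached 5.19, more than 87.8% of tested genes, and Lum 6.12, more than 89.7%. The 4 groups accounted for 3.93% of the variance of log2 CPM in Pi16 and 4.88% in Dcn, against a median of 34.2% over all tested genes. The same share was 53.8% in Fap and 47.8% in Fn1. Most of the spread in Pi16 and Dcn thus lay between mice of 1 group.

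Over the 12 tumours the markers did not vary as a single block. Of 45 pairs, 33 had a positive Pearson correlation of log2 CPM, 16 were above 0.5 and 4 below -0.5 (12 libraries, which share their groups and their depth scaling, given as a description). Postn, Dcn and Pi16 went together, at 0.80 for Postn with Pi16, 0.79 for Dcn with Postn and 0.78 for Dcn with Pi16. Pdgfra and Lum formed another pair at 0.77. Tnc correlated at 0.77 with Pi16, at 0.69 with Pdpn and at 0.61 with Fap. Fn1 ran opposite to several of these genes, at -0.71 with Pdpn, -0.64 with Pi16, -0.54 with Postn and -0.52 with Tnc.

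**Figure D3:**
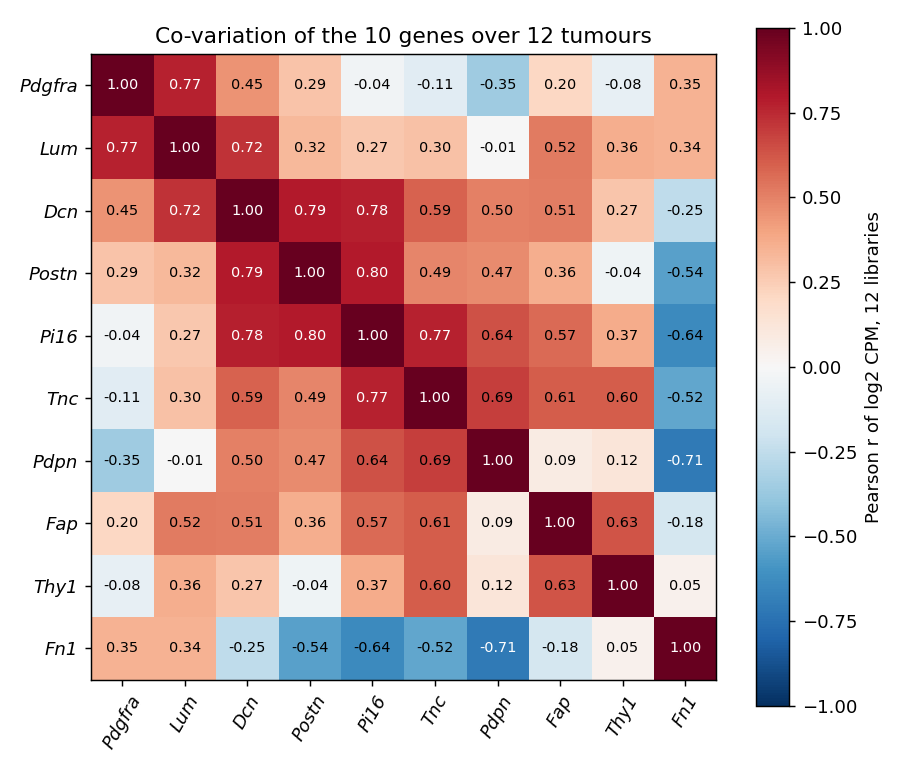
Pearson correlation of log2 CPM between each pair of the 10 markers over 12 tumours, coloured from -1 to 1. Dcn, Postn and Pi16 share values of 0.78 to 0.80, and the Fn1 row holds the 4 values below -0.5.

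The promoters of Pdpn, Tnc, Postn and Pi16 are shown because, among markers with a promoter entry, these varied together, with pairwise correlations of 0.47 to 0.80. Dcn varied with these 4 genes at 0.50 to 0.79 but had no matched entry. Each printed promoter is the 250 bases before the start site in RefSeq, build GRCm38.p6, read 5′ to 3′ on the gene's strand. RefSeq promoter entries were matched for 5 of the 10 markers, Pdgfra being the fifth, and Tnc and Postn had more than 1 start, of which entry 2 is printed. Capitals mark a match to ACGTG (the core that HIF binds) or TATAAA (the TATA box), and TGANTCA (the AP-1 site) was also searched; both strands were read, and overlapping matches were joined. Among 32841 promoters of the same length, 16.6% held ACGTG, 12.4% TATAAA and 6.75% TGANTCA.
Pdpn, chr4:143299565-143299814, minus strand: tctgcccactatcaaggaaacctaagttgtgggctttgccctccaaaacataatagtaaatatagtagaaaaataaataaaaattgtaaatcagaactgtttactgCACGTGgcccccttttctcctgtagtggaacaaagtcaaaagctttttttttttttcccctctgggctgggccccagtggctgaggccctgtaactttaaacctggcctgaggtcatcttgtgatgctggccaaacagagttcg
Tnc, chr4:64046937-64047186, minus strand: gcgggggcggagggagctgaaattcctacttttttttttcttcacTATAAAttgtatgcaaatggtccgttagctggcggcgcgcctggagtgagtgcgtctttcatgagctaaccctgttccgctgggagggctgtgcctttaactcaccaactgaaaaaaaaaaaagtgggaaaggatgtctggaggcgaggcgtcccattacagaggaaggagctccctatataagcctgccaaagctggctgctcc
Postn, chr3:54360857-54361106, plus strand: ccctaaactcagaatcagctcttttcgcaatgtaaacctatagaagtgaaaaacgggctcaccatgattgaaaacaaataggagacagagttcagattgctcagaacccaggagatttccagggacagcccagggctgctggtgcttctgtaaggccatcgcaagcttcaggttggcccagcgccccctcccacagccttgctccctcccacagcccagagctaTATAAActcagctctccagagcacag
Pi16, chr17:29318632-29318881, plus strand: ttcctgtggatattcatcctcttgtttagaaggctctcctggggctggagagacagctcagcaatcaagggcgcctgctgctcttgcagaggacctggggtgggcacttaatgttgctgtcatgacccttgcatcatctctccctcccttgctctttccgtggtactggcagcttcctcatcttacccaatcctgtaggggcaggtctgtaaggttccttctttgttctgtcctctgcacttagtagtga
Pdpn held ACGTG on both strands as a single palindrome 144 to 139 bases before its start. The printed entry of Postn held TATAAA 26 to 21 bases before its start and that of Tnc 205 to 200 bases before. In entry 1 of Tnc the same site lies 126 to 121 bases before that entry's own start. Only exact letters were matched, so the tatataag near the end of the printed Tnc entry was left unmarked. Entry 1 of Postn held none of the 3 motifs, nor did Pi16. No motif of the 3 was common to the 4 genes in these windows.

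Among the surface proteins, Fap had the lowest FPKM and, in HI against MI, the smallest adjusted p of the 10. Fap encodes fibroblast activation protein, a membrane serine protease of activated fibroblasts. HI tumours had 5.66, 7.67 and 5.004 CPM, HC tumours 11.4, 9.96 and 6.68, MI tumours 16.5, 8.06 and 12.3, and MC tumours 8.66, 10.1 and 6.79. Every HI value lay below every MI value, and HI overlapped HC and MC. On the CPM scale, Fap and Thy1 were the 2 markers of 10 that lay wholly lower in HI than in MI, where 6.61% of all tested genes did so. The log2 change of Fap was -1.01 in HI against MI (SE 0.29, interval -1.63 to -0.38, adjusted p = 0.214), -0.61 in HI against HC (interval -1.24 to 0.01, adjusted p = 0.964), 0.53 in MI against MC (interval -0.09 to 1.14, adjusted p = 0.492) and 0.13 in HC against MC (adjusted p = 0.916). The interaction, which asks whether IOX2 acted differently at altitude, was -1.14 for Fap (interval -2.01 to -0.26, adjusted p = 0.596). Fap passed the threshold in HI against MI by DESeq2's Wald test (adjusted p = 0.0327) and by edgeR without MI replicate 2 (log2 change -1.23, adjusted p = 0.0405). Over all genes those fits called 376 of 24264 and 520 of 15592, against 0 with edgeR on all 12 tumours.

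Markers listed for vessel-wall cells moved with Fap. The summed CPM of 10 pericyte and smooth muscle genes was 332 to 381 in HI, 373 to 494 in HC, 414 to 687 in MI and 386 to 446 in MC, and none of the 10 was at 0 in any tumour. Its Pearson correlation with Fap was 0.93 (Spearman 0.92, and 0.89 after removing group means, 12 libraries), the strongest among 13 cell type lists. Acta2 enters this sum and is also in the list of myofibroblastic genes below, where its CPM are given. The correlation of Fap with the sum without Acta2 was not computed. Other sums also ran with Fap, at 0.81 for endothelium, 0.80 for lymphatic endothelium and 0.59 for skeletal muscle (0.87 after removing group means). In HI against MI 9 of the 10 pericyte and smooth muscle genes had negative log2 changes and 0 were called. Their median was -0.52, against -0.01 over all tested genes. At an unadjusted p under 0.05 edgeR listed 5 of the 10 there, DESeq2 called 2 (Pdgfrb and Rgs5) and limma-voom 0. The 13 endothelial genes, again none at 0, summed to 363 to 403 in HI, 440 to 573 in HC, 472 to 626 in MI and 474 to 482 in MC, with 12 of 13 negative, 0 called by edgeR and a median of -0.60 in HI against MI. Of these 13, edgeR listed 10 at an unadjusted p under 0.05, where the background was 15.2%, DESeq2 called 9 and limma-voom 0. Their part in the Fap values was not tested. Of the other dipeptidyl peptidase relatives, Dpp7, a lysosomal peptidase, had a log2 change of -0.45 in HI against MI (adjusted p = 0.217), Prep 0.10 (adjusted p = 0.499) and Dpp8 -0.14 (adjusted p = 0.507). None of the 7 genes of that list, Fap included, was called by edgeR in any comparison; in HI against MI 2 had an unadjusted p under 0.05, Fap and Dpp7, and DESeq2 called these and limma-voom 0. Fap also correlated at -0.73 with 9 skin and hair follicle genes, which summed to at most 15.2 CPM with 1 to 6 of them at 0 in 11 of the 12 tumours.

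**Figure D4:**
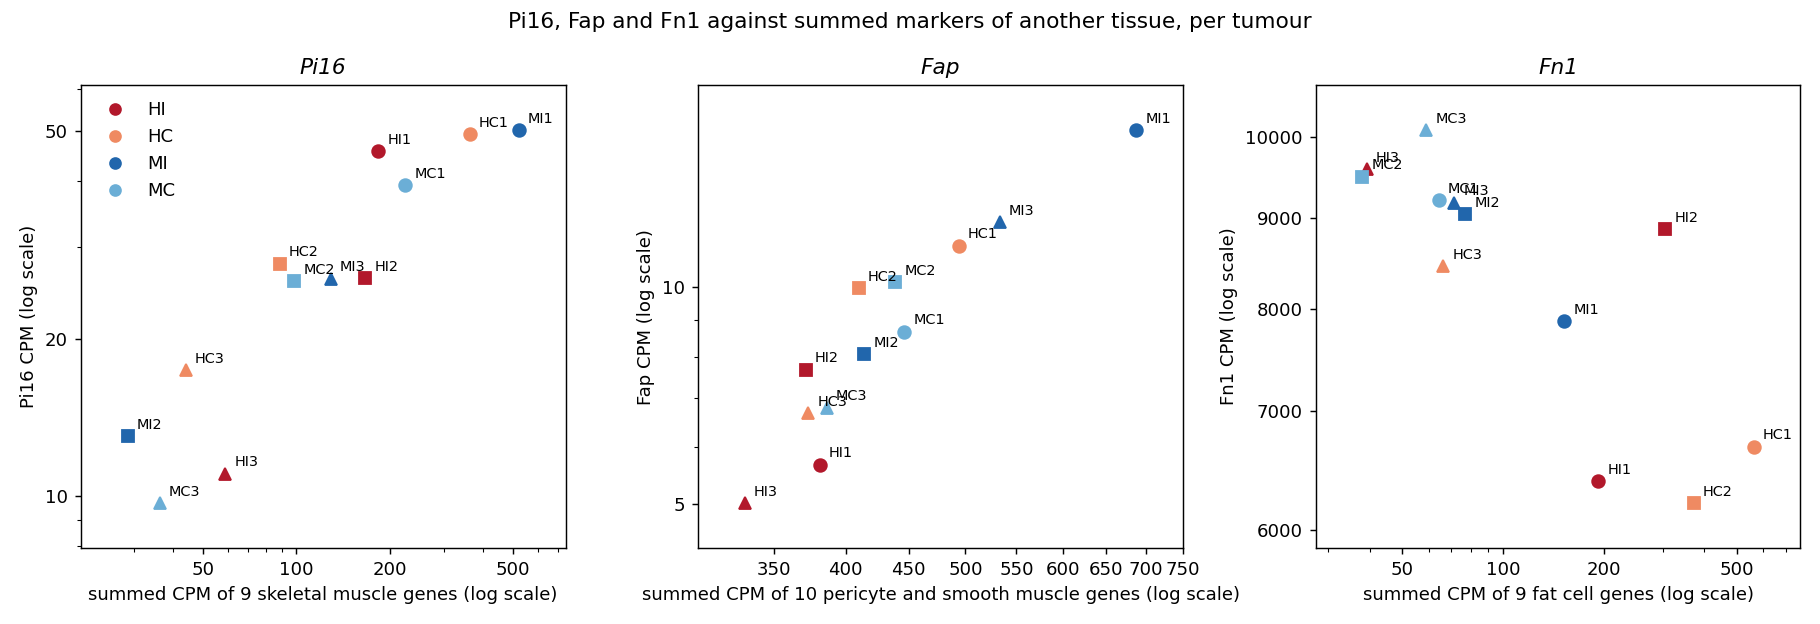
CPM of Pi16, Fap and Fn1 (log axes) against the summed CPM of 9 skeletal muscle, 10 pericyte and smooth muscle and 9 fat cell genes, 1 labelled point per tumour, circles for replicate 1, squares for 2 and triangles for 3. Pi16 and Fap run upward with their sums (r = 0.92 and 0.93), and Fn1 runs downward (r = -0.81). Of 13 cell type lists, each panel shows the list with the strongest correlation for its marker.

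Thy1, a GPI-anchored surface glycoprotein of fibroblasts that is also on mouse T cells, was the steadiest marker. HI tumours had 117, 118 and 114 CPM, HC tumours 110.1, 128 and 117, MI tumours 152, 119.8 and 123, and MC tumours 135, 128 and 121. The HI values stood close together and under all MI values, by a narrow gap, and MI1 was the highest of the 12 tumours. In FPKM, HI and MI overlapped for Thy1, with 65.8 in MI3 against 65.6, 69.2 and 66.6 in HI. In HI against MI the log2 change was -0.18 (SE 0.10, interval -0.40 to 0.04, adjusted p = 0.39), and in HC against MC it was -0.11 (interval -0.33 to 0.10, adjusted p = 0.717). MI1 also had the highest sum of T cell genes (7 of the 10 listed were in the table), 118 CPM, against 39.7 to 80.0 CPM in the other 11 tumours, yet over the 12 tumours Thy1 correlated with that sum at 0.32 (Spearman -0.29). Thy1 correlated at 0.76 with the sum of 6 lymphatic endothelial genes (Spearman 0.37), which was 11.3 to 23.5 CPM in HI, 21.4 to 29.8 in HC, 21.1 to 119 in MI and 15.7 to 32.7 in MC, with none at 0. With the pericyte sum given above it correlated at 0.69 (Spearman 0.56). The part of these cells in the Thy1 values was not tested.

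Pdgfra, the receptor for PDGF-A and PDGF-C and a broad mesenchymal marker, had 73.7, 66.95 and 90.0 CPM in HI, 102, 68.0 and 82.2 in HC, 80.6, 78.5 and 120.0 in MI, and 100.2, 77.7 and 95.6 in MC. The 4 groups overlapped throughout. Its log2 change was -0.27 in HI against MI (interval -0.70 to 0.15, adjusted p = 0.486), -0.12 in HC against MC (adjusted p = 0.881) and 0.03 in MI against MC (adjusted p = 0.957). Among the other PDGF genes, Pdgfc, which encodes a ligand of this receptor, fell at altitude averaged over treatment, the only edgeR call among the 6 genes of the list in any comparison. Pdgfc was at 17.9, 33.2 and 31.8 CPM in HI, 20.6, 22.1 and 22.9 in HC, 38.1, 37.7 and 43.4 in MI, and 39.3, 42.1 and 59.8 in MC. All 6 chamber tumours lay below all 6 ambient ones, and how many of all tested genes did so was not counted. The log2 change was -0.82 (SE 0.15, adjusted p = 0.0446), where 0.498% of all tested genes were called. Pdgfrb, the receptor of mural cells, had -0.24 (adjusted p = 0.176), and Pdgfd, a ligand of Pdgfrb, -0.32 (adjusted p = 0.393). DESeq2 also called Pdgfrb in HI against MI, and limma-voom called 0 of the 6. The Pdgfc call was kept in 8 of 20 alternative fits, and its adjusted p ran from 9.4e-05 to 0.132 over them, with the log2 change between -0.89 and -0.70.

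Pdpn encodes podoplanin, a mucin-like glycoprotein that binds CLEC-2 on platelets. HI tumours had 28.8, 19.4 and 16.2 CPM, HC tumours 16.8, 23.5 and 19.2, MI tumours 19.9, 14.9 and 20.8, and MC tumours 17.5, 16.8 and 12.0. HI1 was the highest and MC3 the lowest, and every pair of groups overlapped. At altitude averaged over treatment the log2 change was 0.29 (SE 0.16, interval -0.07 to 0.64, adjusted p = 0.381). Pdpn correlated at 0.80 with the sum of 7 neutrophil genes (Spearman 0.75) and at -0.72 with that of 11 macrophage genes (Spearman -0.41). These were the highest and the lowest values among the 13 cell type lists. With the lymphatic endothelial sum given above Pdpn correlated at 0.16 (Spearman 0.32). The neutrophil sum was 828 to 1472 CPM in HI, 962 to 1566 in HC, 999 to 1426 in MI and 718 to 1282 in MC, with none at 0. The macrophage sum was 1687 to 2260.2 CPM in HI, 1882 to 2607 in HC, 2366 to 2612 in MI and 2386 to 3134 in MC, with none at 0, and the part of either in the Pdpn values was not tested.

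Dcn and Lum encode small leucine-rich proteoglycans that bind collagen and set fibril spacing. In the RefSeq gene order of GRCm38.p6 they are next to each other, followed by Kera and Epyc, which had 0 to 3 counts per library. Lum had 35.2, 37.1 and 43.3 CPM in HI, 50.6, 30.6 and 40.2 in HC, 69.7, 31.7 and 187 in MI, and 92.0, 60.1 and 45.7 in MC. MI3 was far above the rest, while MI2 lay inside the range of HC. The log2 change of Lum was -1.32 in HI against MI (SE 0.50, interval -2.41 to -0.24, adjusted p = 0.276), -0.71 in HC against MC (interval -1.78 to 0.37, adjusted p = 0.62) and -1.01 at altitude averaged over treatment (SE 0.35, interval -1.78 to -0.25, adjusted p = 0.177), the smallest adjusted p of a marker in any comparison. The values in HI against MI and in the altitude average turned on single MI tumours. Without MI replicate 3 the change in HI against MI was -0.40 (adjusted p = 0.724) and the altitude average -0.55 (adjusted p = 0.28), whereas without MI replicate 2 they were -1.74 (adjusted p = 0.0409) and -1.22 (adjusted p = 0.0485). In HC against MC it was -0.39 without MC replicate 1 and -0.91 without MC replicate 3. In MI against MC the log2 change was 0.54, and without MI replicate 3 it was -0.38.

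Dcn had 115, 86.9 and 58.1 CPM in HI, 119.5, 69.3 and 89.2 in HC, 119, 53.8 and 165 in MI, and 135, 79.4 and 58.3 in MC. The lowest and the highest of the 12 tumours were both in MI, and all groups overlapped. Its log2 change was -0.38 in HI against MI (interval -1.27 to 0.51, adjusted p = 0.662) and 0.03 in HC against MC (interval -0.86 to 0.92, adjusted p = 0.99). The value in HI against MI was -0.00 without MI replicate 3 and -0.72 without MI replicate 2. Of 14 small leucine-rich proteoglycan genes, Dcn and Lum included, 10 were tested, and edgeR called 0 in any comparison. All 10 had negative log2 changes in HI against MI, with a median of -1.18 against -0.01 over all tested genes. Leaving out each HI or MI tumour in turn kept all 10 negative, with a median of -0.68 without MI replicate 3 and -1.54 without MI replicate 2. At an unadjusted p under 0.05 edgeR listed 5 of the 10 there, where the background was 15.2%, DESeq2 called 1 (Fmod) and limma-voom 0. Fmod, a collagen-binding relative, was at -1.91 (adjusted p = 0.229), Aspn at -1.40 (adjusted p = 0.256) and Ecm2 at -1.05 (adjusted p = 0.258). Single MI tumours stood apart in these genes, with Fmod at 34.6, 5.83 and 10.01 CPM and Aspn at 41.2, 16.3 and 87.1 CPM in MI. All 10 were positive in MI against MC, with a median of 0.56, and the MI tumours enter both comparisons.

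Postn and Tnc encode matricellular proteins, which bind matrix and receptors without building fibres. Postn had 695, 468 and 427 CPM in HI, 861, 456 and 608 in HC, 609, 392 and 603 in MI, and 565, 531 and 397 in MC. HC1 was the highest and MI2 the lowest, and the groups overlapped. Its log2 change was 0.37 in HC against MC (interval -0.20 to 0.93, adjusted p = 0.627) and -0.01 in HI against MI (interval -0.58 to 0.55, adjusted p = 0.984). Without HC replicate 1 the value in HC against MC was 0.10. Tnc had 1127, 787 and 779 CPM in HI, 890.2, 1009 and 782 in HC, 1417, 871 and 1037 in MI, and 939.5, 907 and 587 in MC. MI1 was the highest and MC3 the lowest, with overlap between all groups. For Tnc the log2 change was 0.45 in MI against MC (SE 0.22, interval -0.04 to 0.94, adjusted p = 0.492) and -0.31 in HI against MI (interval -0.79 to 0.18, adjusted p = 0.499).

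Of the 19 matricellular genes listed, Postn and Tnc included, edgeR called 1, Thbs1, which fell at altitude averaged over treatment. Thbs1 encodes thrombospondin 1, a matricellular protein that restrains vessel growth and activates latent TGF-beta. It was at 483, 694 and 554 CPM in HI, 374, 501 and 529.6 in HC, 887, 732 and 923 in MI, and 768, 716 and 675 in MC. Only HI2 and MC3 crossed between the chamber and ambient tumours. The log2 change was -0.59 (SE 0.11, adjusted p = 0.0464), where 0.498% of all tested genes were called. It was kept as a call in 8 of 20 alternative fits, with adjusted p from 0.000219 to 0.13. Tnr, a tenascin known from nervous tissue, was at -2.46 (adjusted p = 0.0939), Spp1 (osteopontin) at -0.42 (adjusted p = 0.116) and Sparcl1 at -0.25 (adjusted p = 0.331) in that comparison. DESeq2 called Spp1, Thbs1 and Tnr there, and limma-voom called 0. Tnc correlated at 0.76 with the sum of neutrophil genes given above and at 0.70 with that of pericyte genes, whose part in its values was not tested.

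Fn1 encodes fibronectin, the fibrillar glycoprotein on which other matrix assembles. HI tumours had 6396, 8872 and 9589 CPM, HC tumours 6686, 6210.1 and 8456, MI tumours 7872, 9048 and 9182, and MC tumours 9213, 9499 and 10095. All HC values lay below all MC values, and all MI values lay just below them too, while HI overlapped each of the other groups. Fn1 was thus the 1 marker of 10 wholly lower in HC than in MC, where 11.4% of all tested genes were, and the 1 of 10 wholly lower in MI than in MC, where 6.32% were. The log2 change of Fn1 was -0.43 in HC against MC (SE 0.15, interval -0.77 to -0.10, adjusted p = 0.317), -0.14 in MI against MC (interval -0.48 to 0.19, adjusted p = 0.692), -0.07 in HI against MI (interval -0.41 to 0.27, adjusted p = 0.843) and -0.25 at altitude averaged over treatment (interval -0.49 to -0.01, adjusted p = 0.265). In HI against HC none of the 10 markers was free of overlap, where 11.4% of tested genes were, counting both directions.

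Fat cell genes ran opposite to Fn1. The summed CPM of 9 of them was 193, 306 and 39.0 in HI, 562, 372 and 66.3 in HC, 152, 77.2 and 71.4 in MI, and 64.3, 38.0 and 59.0 in MC. The 3 tumours lowest in Fn1, HC2, HI1 and HC1, were among the 4 with the highest sums. Pearson's r was -0.81 (Spearman -0.87, and -0.66 after removing group means; 12 libraries). Of these genes Cidea was at 0 in 4 tumours (HI3, MI2, MC1 and MC3), and all 9 had positive log2 changes in HC against MC with 0 called by edgeR. At an unadjusted p under 0.05 all 9 were listed there, where the background was 12%, DESeq2 called 5 (Cidea, Cidec, Fabp4, Lep and Retn) and limma-voom 0. Mast cell genes, 7 with none at 0, summed to 18.2 to 33.4 CPM in HI, 17.6 to 25.2 in HC, 27.1 to 35.5 in MI and 32.3 to 47.4 in MC, and correlated with Fn1 at 0.80. All 7 had negative log2 changes in HC against MC with 0 called by edgeR, 6 had an unadjusted p under 0.05, DESeq2 called 3 (Cma1, Mcpt4 and Tpsb2) and limma-voom 0. The part of fat and mast cells in the Fn1 values was not tested. Of 12 receptor genes for fibronectin and periostin, 0 were called in any comparison by edgeR, DESeq2 or limma-voom. At an unadjusted p under 0.05 edgeR listed 6 in altitude averaged over treatment (background 17.3%) and 4 in HI against MI (background 15.2%). It listed 3 in MI against MC (background 9.39%), 2 in HC against MC (background 12%) and 0 in the other comparisons. In altitude averaged over treatment 4 of the 12 were positive and 8 negative, with a median of -0.11 (all genes -0.02). The lowest adjusted p of the 12 by edgeR was 0.154 there. The smallest adjusted p values in HC against MC were those of Itgb5, an integrin subunit paired with alpha v, at -0.42 (adjusted p = 0.343), and of Cd44, the hyaluronan receptor, at 0.41 (adjusted p = 0.369). In the same comparison Itgb6, an epithelial integrin subunit, was at 0.67 (adjusted p = 0.508) and Itga9 at -0.27 (adjusted p = 0.59).

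Pi16 encodes a peptidase inhibitor and marks adventitial fibroblasts. Of the 10 it had the smallest share of its variance between groups. HI tumours had 45.7, 26.1 and 11.03 CPM, HC tumours 49.3, 27.8 and 17.4, MI tumours 50.2, 13.01 and 26.1, and MC tumours 39.3, 25.7 and 9.67. Replicate 1 was the highest in each of the 4 groups, at 39.3 to 50.2 CPM, and the other tumours were at 9.67 to 27.8 CPM. Its log2 change was 0.34 in HC against MC (SE 0.63, interval -1.04 to 1.71, adjusted p = 0.901) and -0.11 in HI against MI (interval -1.48 to 1.27, adjusted p = 0.946). The summed CPM of 9 skeletal muscle genes, none at 0 in any tumour, was 184, 167 and 59.0 in HI, 363, 88.5 and 43.9 in HC, 521, 28.5 and 129 in MI, and 224, 98.5 and 36.3 in MC. That sum was also highest in replicate 1 of each group, and its correlation with Pi16 was 0.92 (Spearman 0.92, and 0.93 after removing group means). Dcn and Postn correlated with it at 0.76 and 0.72. The part of muscle in these values was not tested.

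Some tumours were extreme for several markers at once. MI1 was the highest of 12 for Fap, Tnc, Thy1 and Pi16, and MI3 for Pdgfra, Dcn and Lum, while MI2 was the lowest for Dcn and Postn. MI1 also held the highest sum of 6 lymphatic endothelial genes, 119 CPM, against 11.3 to 32.7 CPM in the other 11 tumours.

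**Figure D5:**
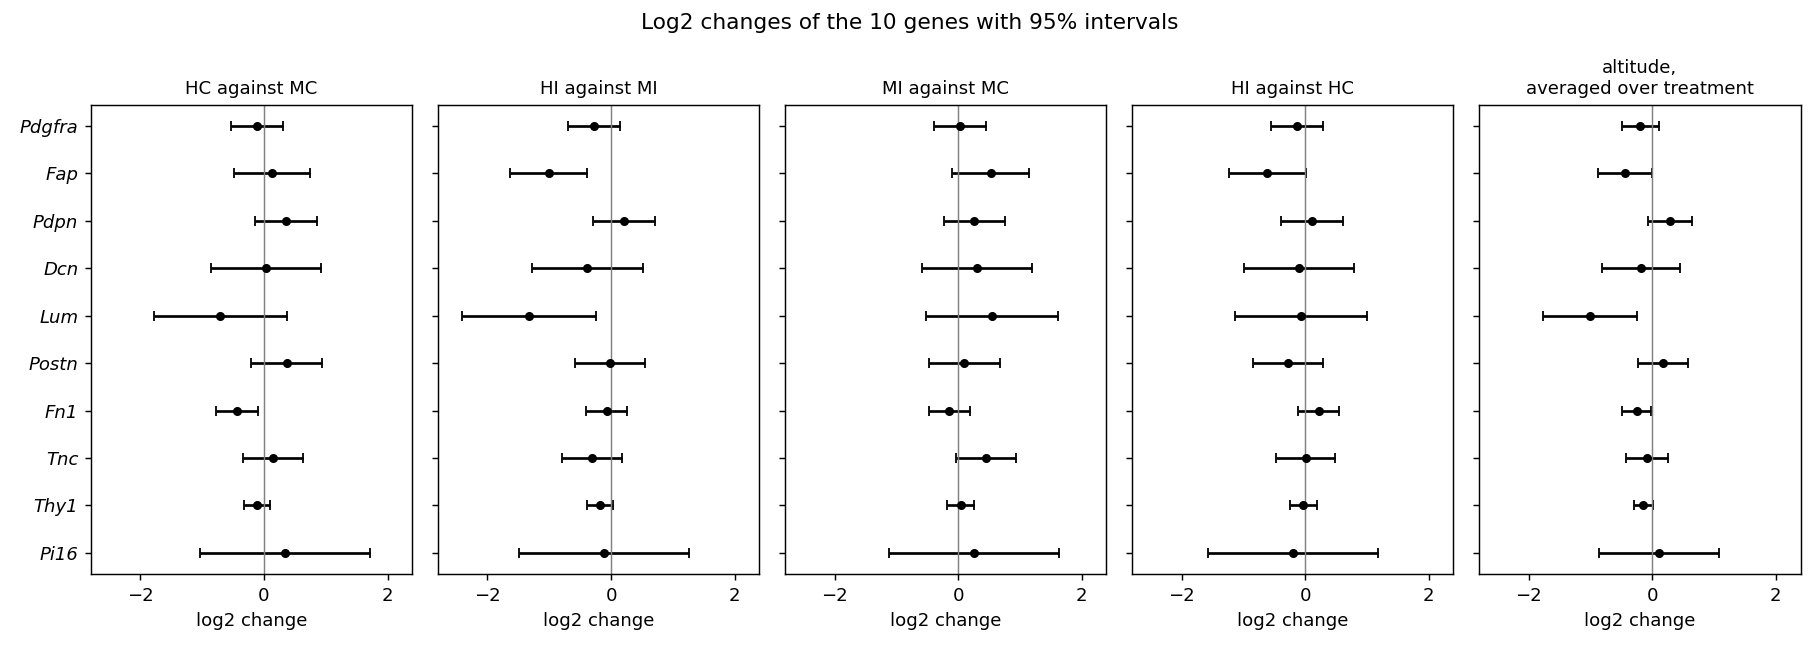
Log2 changes (points) of the 10 markers with 95% intervals (bars) in the 4 comparisons of 2 groups and in altitude averaged over treatment. Intervals of Fap and Lum lie below 0 in HI against MI, those of Fn1 in HC against MC and those of Lum and Fn1 in the altitude average, and none of these passed the adjusted threshold.

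In HC against MC the log2 changes of the 10 markers had a median of 0.08 (6 positive, 4 negative), and those of all tested genes -0.01. It was -0.23 in HI against MI (1 positive, 9 negative; all genes -0.01), 0.26 in MI against MC (9 positive, 1 negative; all genes 0.01) and -0.08 in HI against HC (3 positive, 7 negative; all genes 0.00). HI against MI and MI against MC share the MI tumours, of which 2 hold the highest values of 7 of the 10 markers. The interaction had a median of -0.39 (1 positive, 9 negative; all genes -0.02). Pdpn was the positive marker in HI against MI, Fn1 the negative one in MI against MC and the positive one in the interaction.

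Wider fibroblast programmes held few calls. Of 18 pan-fibroblast and interstitial matrix genes, mainly collagens and their partners, edgeR called 0 in any comparison. In HC against MC 17 of the 18 were positive with a median of 0.30 (all genes -0.01), led by Fbln2, an elastic fibre protein, at 0.34 (adjusted p = 0.426) and Serpinf1 at 0.36 (adjusted p = 0.443). HC1 stood apart in the most abundant of them, with Col1a1 at 4565, 3056 and 2862 CPM in HC, against 3305, 2787 and 2462 CPM in MC. Without HC replicate 1 the median of the 18 was 0.13 with 15 positive, and without MC replicate 3 it was 0.18 with 15 positive. In HI against MI 17 of 18 were negative with a median of -0.20, which was -0.06 with 13 negative without MI replicate 1 and -0.34 without MI replicate 2. There Fbn1 (fibrillin) was at -0.57 (adjusted p = 0.346), and Fbln2 was the positive one, at 0.41 (adjusted p = 0.276). At an unadjusted p under 0.05 edgeR listed 0 of the 18 in HC against MC and 1 in HI against MI, DESeq2 called 1, Fbln2 in altitude averaged over treatment, and limma-voom called 0. Of 18 resting and adventitial fibroblast genes 17 were tested and edgeR called 0. In HI against MI 13 of these were negative with a median of -0.14. Without MI replicate 1 the median was 0.09 with 7 negative, and without HI replicate 3 it was -0.06 with 9 negative. Without MI replicate 2 it was -0.35 with 14 negative. With all tumours kept, Col15a1, a basement membrane collagen, was at -0.84 (adjusted p = 0.165). Cd34 was at -0.54 (adjusted p = 0.193), Cd248 at -0.55 (adjusted p = 0.216) and Gsn at 0.34 (adjusted p = 0.314). Of the 17, 5 had an unadjusted p under 0.05 by edgeR there, where the background was 15.2%, DESeq2 called 2 (Cd34 and Col15a1) and limma-voom 0.

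Myofibroblastic genes numbered 18, with 0 called in any comparison by edgeR, DESeq2 or limma-voom, and 8 with an unadjusted p under 0.05 by edgeR in HI against MI, where the background was 15.2%. In HI against MI 16 were negative, with a median of -0.48 (all genes -0.01). Tgfb1i1, a focal adhesion adaptor, was at -0.50 (adjusted p = 0.226), Acta2, smooth muscle actin and also 1 of the pericyte genes above, at -0.60 (adjusted p = 0.232), Aspn at -1.40 (adjusted p = 0.256) and Col8a1 at -0.64 (adjusted p = 0.285). In MI against MC all 18 were positive, with a median of 0.44 (all genes 0.01). Col8a1 there was at 0.79, Thbs2 at 0.46, Inhba at 0.63 and Comp at 1.62, each with an adjusted p of 0.492, the smallest for any of the 18. MI1 was the highest of 12 for both Comp and Acta2. Comp was at 2.44, 0.583 and 0.485 CPM in MI, against 0.705, 0.328 and 0.102 in MC, and Acta2 at 266, 165 and 166 in MI, against 174, 171 and 141 in MC. Without MI replicate 1 the median of the 18 was 0.22, with 14 positive.

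Of 16 inflammatory fibroblast genes edgeR called 1. At altitude averaged over treatment 11 of the 16 were positive and 5 negative, with a median of 0.09 (all genes -0.02), and 6 had an unadjusted p under 0.05, where the background was 17.3%. DESeq2 called 3 there (Cxcl1, Cxcl14 and Lif) and limma-voom 0. Cxcl1, a chemokine that attracts neutrophils and that many cells other than fibroblasts make, rose at altitude averaged over treatment, to 55.9, 22.1 and 33.6 CPM in HI and 19.4, 24.9 and 44.3 in HC, against 10.7, 12.6 and 13.2 in MI and 8.74, 9.16 and 8.68 in MC. All 6 chamber tumours lay above all 6 ambient ones, and how many of all tested genes did so was not counted. The log2 change was 1.67 (SE 0.24, adjusted p = 0.0257), where 0.498% of all tested genes were called. Cxcl1 was kept as a call in 14 of 20 alternative fits, with adjusted p from 2.83e-09 to 0.0994. Lif was at 0.42 (adjusted p = 0.106), Cxcl2 at 1.79 (adjusted p = 0.133), Hp (haptoglobin) at 1.87 (adjusted p = 0.144) and Cxcl14 at -0.58 (adjusted p = 0.158) in that comparison.

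Genes of TGF-beta signalling, which induces several of the matrix markers, and fibroblast transcription factors were not called by edgeR either, with 0 of 18 and 0 of 13 tested (14 listed). At altitude averaged over treatment 4 of each list had an unadjusted p under 0.05, where the background was 17.3%, DESeq2 called 3 of the TGF-beta genes and 1 of the factors (Scx), and limma-voom called 0. In that comparison Tgfb3 was at -0.61 (adjusted p = 0.0764), Tgfb2 at -0.71 (adjusted p = 0.122), Tgfb1 at -0.24 (adjusted p = 0.145) and Smad2, a signal transducer, at 0.14 (adjusted p = 0.179). Scx, a tendon factor, was at -0.42 (adjusted p = 0.133), and Hic1 at -0.26 (adjusted p = 0.251).

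The 3 tested genes outside the 10 whose log2 CPM was most like each marker over the 12 tumours are given as a description. Pi16 was nearest to Sec16b (Pearson 0.97), Trim54, a muscle RING-finger gene (0.94), and Thbs4 (0.94). Tnc was nearest to Col5a3 (0.97), Srpx2 (0.97) and Endod1 (0.95), and Fap to Armcx3 (0.95), Raet1e (0.94) and Srpx (0.94). Fn1 was nearest to Zfp704 (0.96), Lyst (0.96) and Ltbp3 (0.95), and Lum to Dram2 (0.95), Snap29 (0.95) and Zfp712 (0.94). Those most like Pdpn were Ugdh (0.95), Fer (0.95) and Dbf4 (0.94), and those most like Dcn were Bmpr1b (0.92), Pir (0.92) and Dgke (0.89). Postn was nearest to Nrep (0.91), Pcsk5 (0.91) and Tmem100 (0.89), Thy1 to Sidt1 (0.93), Adgre4 (0.91) and Siglecg (0.91), and Pdgfra to Tm6sf1 (0.89), Vps13c (0.88) and C1qtnf3 (0.87). No gene was among the nearest 3 of more than 1 marker.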

How the data were processed

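RNA from 12 tumours, 3 mice per group, was read as pairs of 150 bases. Tools named in the submitters' processing notes, with no role given there, were HISAT2 2.1.0, HTSeq 0.11.2, fastp 0.20.1, R 3.5.1 and DESeq2 1.22.2, and the build was GRCm39. Which annotation and strand setting were used is not given in the sources used here, so a gene and an antisense partner could not be told apart. The deposited table of counts has raw whole numbers per gene. The authors deposited FPKM for those genes as well, and each FPKM above 0 implied a whole gene length within 0.01 base (100% of 229103 values).

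The counts were fitted with edgeR 4.0.16 in R 4.3.3, using TMM factors (0.925 to 1.03), filterByExpr and a quasi-likelihood model in which all libraries share a spread estimate and each group has its mean. P values were adjusted by Benjamini-Hochberg over 15269 genes, and SE and intervals follow from the F statistic. Alternatives were DESeq2 1.42.0, limma 3.58.1 (voom, and log2 of FPKM plus 0.1 or 1), other scaling and filters, a replicate block, only the groups compared, and leaving out each library. CPM are TMM-scaled. Correlations used log2 CPM with a prior count of 2.

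The 10 markers are always named. For each gene list described, up to 4 genes with the smallest p in a comparison are named, and for each marker the 3 most alike genes, predicted genes left out. Cidea, Col1a1, Kera, Epyc and the genes DESeq2 called were named after their values were seen. The markers and lists were chosen with earlier results of these data known. Same-numbered tumours of HC and MC, after removing group means, had correlations of 0.278, 0.153 and 0.209 over all tested genes. Any pairing by number comes from the data and not from the labels. For HI with MI the values were 0.257, 0.0717 and 0.131, and for MI with MC 0.313, -0.09 and -0.104. For HI with HC they were -0.0208, -0.0745 and 0.244. Tumours with different numbers were not compared, so a pairing particular to HC and MC was not tested.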

Additional observations from a re-analysis of the deposited data

How the results depend on the processing

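Of 70 values (10 markers in 7 comparisons), 32 kept their sign under every alternative and 38 turned under at least 1. Of 1440 recomputed values, 3 moved by 1 within-group SD or more, all for Lum without MI replicate 3. The number of markers called in HI against MI was 1 with DESeq2 and 0 to 2 when each library was left out (2 without MI replicate 2, Fap and Lum). In altitude averaged over treatment it was 0 to 1 (Lum, without MI replicate 2), and in the other comparisons 0 throughout. The replicate block, fitted over all 12 libraries, left 0 markers called in every comparison, so it changed no call of a marker. With that block 13 genes were called in HC against MC, against 0 without it. A pairing of HC with MC alone was not fitted. The background itself moved: all genes called in altitude averaged over treatment were 76 by edgeR, 155 with the replicate block, 166 with no filter on low counts, 855 by DESeq2 and 20 by limma-voom, and DESeq2 called 311 in HC against MC and 376 in HI against MI, where edgeR called 0. The cause was not tested. With 3 mice a group, the width of the intervals limits what can be read from them, and each marker had at least 201 counts in every library.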
